A study of Mus musculus with 4 samples.

Results

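The annexins are a family of proteins that bind membrane phospholipids when calcium rises. The genes described here are the 10 annexins Anxa1 to Anxa9 and Anxa11 in mouse retina. They were chosen by symbol from the 43280 genes of the authors' deposited table, with their values in the 4 libraries known, so those values are given as a description and not as a test of the family. All 10 passed the filter on low values (at least 10 normalized counts in at least 2 libraries) that left 18127 genes for the fit across the table. Another 2 annexin symbols, Anxa10 and Anxa13, are not members. The study compared dissected retina of wildtype mice, strain given as C6/BL6J in the labels, in 2 groups of 2 libraries. The STZ group had received streptozotocin, which destroys the pancreatic cells that make insulin, at 50 mg/kg on each of 5 days from 6 weeks of age, and hyperglycaemia above 25 mM was checked 10 days later. The control group had received citrate buffer, and retinas of both groups were taken at 18 weeks. Each library is called by its group with the tag, 2L or 4R, that ends its column name. The tag 4R is not in the labels, so those columns are tied to a group and not to a given sample. The column names also carry the mark 8W, and the name under which the data were deposited gives that number as weeks of STZ. How this stands to injection from 6 weeks and collection at 18 weeks of age is not explained in the labels. The labels do not say whether a group's libraries are separate animals or pools, so spreads between them may be technical.

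Annexins share a conserved core of repeats that carries the calcium-dependent membrane sites, and differ in the tail before it, which binds partners such as S100 proteins. They are known for membrane repair, vesicle fusion, the binding of exposed phosphatidylserine and, for Anxa1 and Anxa2, for actions at the cell surface in inflammation and in plasminogen activation. Anxa2 with its partner S100a10 has been tied to vessel growth in the retina. Several annexins are abundant in epithelia, which matters in tissue dissected from the eye, where cornea, conjunctiva and lens lie nearby.

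The reads assigned to genes ranged from 29352330 to 39299653 per library. Markers of rods, the main cell type of mouse retina, took 7.57% to 10.8% of reads, with 0 of the 11 rod markers and 0 of the 15 Müller glia markers at 0 in any library. STZ 2L stood apart: 25 lens markers took 9.02% of its reads, against at most 0.0181% in any other library. The 28 markers of cornea and conjunctiva epithelium took 0.0590% (2L) and 0.0477% (4R) of reads in the STZ libraries, against 0.0115% (2L) and 0.00734% (4R) in the controls. The part of lens or surface epithelium in the annexin values was not tested. In whole tissue, fewer cells of a type and less RNA per cell cannot be told apart. In limma 0.0% of the 18127 genes passed in either direction at an adjusted p of 0.05, while 2.31% were higher and 0.447% lower at an unadjusted p of 0.05 (edgeR on recovered reads also called 0, and DESeq2 called 52).

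Levels of different genes are compared here as normalized counts per kilobase of the longest principal transcript in GENCODE M21. On that scale Anxa5, which binds phosphatidylserine on dying cells, averaged 852 over the 4 libraries. Anxa6, a large annexin with a duplicated core, averaged 843. Anxa2 followed at 779, Anxa1, the annexin known as a mediator of glucocorticoid action, at 629, and Anxa7, also called synexin, at 482. The other 5 lay lower, with Anxa3 at 93.3, Anxa11 at 87.1, Anxa4 at 79.8, Anxa8 at 41.9 and Anxa9 at 19.0. Neighbours in this order mostly did not separate. Anxa5 exceeded Anxa6 in 2 of 4 libraries and Anxa1 exceeded Anxa7 in 1 of 4. Anxa7 exceeded Anxa3, and Anxa8 exceeded Anxa9, in 4 of 4.

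The make-up of the family differed most in STZ 2L. Per kilobase, Anxa1 held 25.5% of the annexin level there, against 8.69% in control 2L, 11.7% in control 4R and 10.9% in STZ 4R. Anxa2 held 24.5% in STZ 2L and between 15.9% and 19.1% in the other libraries. Anxa6 held 16.1% in STZ 2L and between 21.8% and 29.4% elsewhere. Together the 10 genes took 0.0311% of all reads in STZ 2L (0.0305 to 0.0317, a 95% Clopper-Pearson range for counting error alone) and 0.0221% in STZ 4R (0.0217 to 0.0226). In the controls the share was 0.0181% in 2L (0.0176 to 0.0186) and 0.0215% in 4R (0.0210 to 0.0220). STZ 4R therefore lay closer to control 4R than to STZ 2L.

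**Figure D1:**
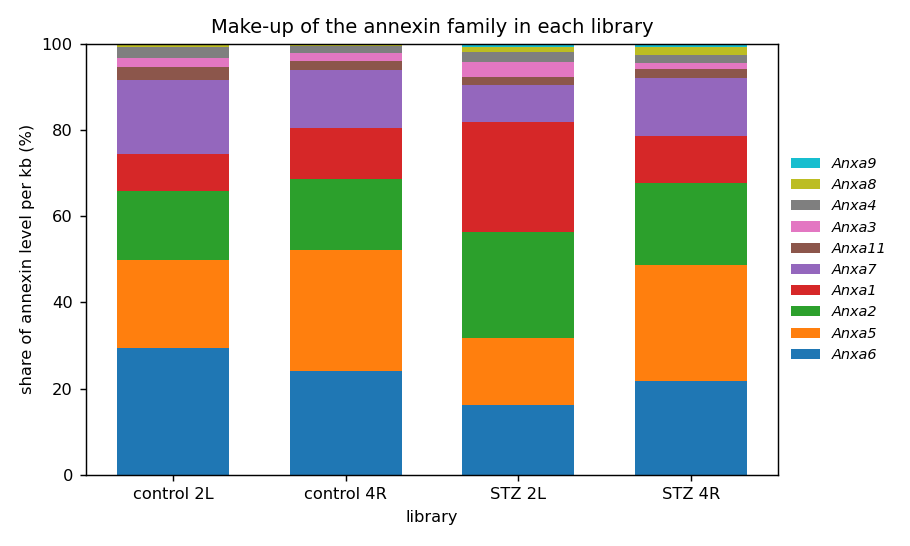
Share of each annexin in the summed annexin level per kilobase (normalized counts per kilobase of transcript, %), stacked for each of the 4 libraries. Anxa1 holds 25.5% in STZ 2L and at most 11.7% in the other libraries.

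The members lie on 7 chromosomes of the mouse genome (mm10): Anxa1 on 19, Anxa2 on 9, Anxa3 on 5, Anxa4 on 6, Anxa5 and Anxa9 on 3, Anxa6 on 11, and Anxa7, Anxa8 and Anxa11 on 14. The principal transcripts have 12 to 15 exons and 319 to 503 codons, apart from Anxa6 with 26 exons and 673 codons. Over the 45 pairs of coding sequences, identity at aligned bases, with gaps left out, ran from 56.5% to 71.3%, with a median of 61.8%. The highest value was that of Anxa6 and Anxa9. Anxa6, with its duplicated core, offers a shorter sequence more bases to align with, so its values are not comparable with those of other pairs. Among pairs without Anxa6 the highest value was 65.4%, for Anxa2 and Anxa11. The strand setting of the counting is not given in the sources used here, so reads of overlapping genes may be shared. Anxa9 shares 71 exon bases with Mindy1, listed in the table as Fam63a, which read 1508 to 1616 normalized counts in every library, and 94 with 6330562C20Rik, which read 16.1 to 26.4. A630023A22Rik, opposite Anxa8, shares 0 exon bases with it and read at most 1.06.

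The 250 bases before the RefSeq start are shown for 3 members on which the results turn (RefSeq promoter table, GRCm38.p6). Anxa8 differed between the groups in both STZ libraries, and Anxa1 and Anxa2 were the abundant members whose STZ 2L value lay furthest above control, by 2.23 and 1.48 log2 units. The table held promoters for 8 of the 10 members. Capitals mark matches, on either strand, to the TATA box TATAAA, the AP-1 site TGANTCA, the GC box GGGCGG or the CCAAT box CCAAT.
Anxa8, chr14:34085729-34085978, plus strand: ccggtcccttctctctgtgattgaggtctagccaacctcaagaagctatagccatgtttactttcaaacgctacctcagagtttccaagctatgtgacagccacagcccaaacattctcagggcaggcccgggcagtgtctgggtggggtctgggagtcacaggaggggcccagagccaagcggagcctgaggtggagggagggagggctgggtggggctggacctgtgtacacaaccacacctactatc
Anxa1, chr19:20390672-20390921, minus strand: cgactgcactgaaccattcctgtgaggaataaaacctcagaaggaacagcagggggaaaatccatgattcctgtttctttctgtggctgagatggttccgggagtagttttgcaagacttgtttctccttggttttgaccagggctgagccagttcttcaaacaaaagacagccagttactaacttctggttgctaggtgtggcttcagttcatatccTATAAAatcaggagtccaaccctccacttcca
Anxa2, chr9:69453433-69453682, plus strand: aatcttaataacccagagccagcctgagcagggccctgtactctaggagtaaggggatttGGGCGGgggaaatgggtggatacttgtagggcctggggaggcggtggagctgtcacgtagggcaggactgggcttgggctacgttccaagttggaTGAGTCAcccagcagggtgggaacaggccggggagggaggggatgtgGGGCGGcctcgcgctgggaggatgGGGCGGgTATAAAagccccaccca
Positions count from the RefSeq start, which for these 3 members equals no transcript start in GENCODE. The Anxa1 stretch lies wholly within the GENCODE gene, and the Anxa2 stretch runs past the GENCODE start of its gene. The Anxa1 stretch holds TATAAA 32 to 27 bases before the RefSeq start. The Anxa2 stretch holds TATAAA 17 to 12 bases before the start, an AP-1 match at 95 to 89 bases and 3 GC box matches. The Anxa8 stretch holds none of these letters. Of all 32851 promoters in the table, 12.4% hold TATAAA, 6.75% TGANTCA, 32.7% GGGCGG and 33.8% CCAAT in the same window. A match is a description of the letters only.

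Anxa8 and Anxa9, known mainly from epithelia, were low in controls and higher in both STZ libraries. Anxa8 read 28.4 (2L) and 18.1 (4R) normalized counts in the controls, and 135 (2L) and 133 (4R) after STZ. The STZ libraries were nearly equal, and both lay above both controls. In recovered reads these values were 25, 18, 128 and 161, with exact Poisson 95% intervals, covering counting error only, of 16.2 to 36.9 and 10.7 to 28.4 in the controls and 107 to 152 and 137 to 188 in STZ. The means were 23.3 ± 7.30 in controls and 134 ± 1.35 in STZ (SD, n = 2). The fold change, on the log2(normalized count + 1) scale, was 2.51 ± 0.41 (SE), or 5.70-fold. In the authors' deposited table Anxa8 stood at 2.53 on the log2 scale (adjusted p = 0.000443) and was the 1 annexin among the genes called there as higher, which made up 0.281% of those with an adjusted p. In limma its adjusted p was 0.299. Leaving out STZ 2L gave 2.50 (limma, adjusted p = 0.0111), and leaving out STZ 4R gave 2.52 (0.00161). Such fits take the spread from the control pair alone, and limma then gave genes of like level nearly the same spread, with a prior of 1793 degrees of freedom without STZ 4R and an infinite one without STZ 2L, against 6.17 with all libraries. Their p-values, here and for the members that follow, are therefore too small for a gene whose own libraries vary widely, and do not support a call.

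Anxa9, an atypical annexin whose core lacks the usual calcium sites in human, read 5.69 (2L) and 16.1 (4R) normalized counts in the controls, and 76.0 (2L) and 44.7 (4R) after STZ. Both STZ libraries lay above both controls, and the controls themselves differed by 1.35 on the log2 scale. The log2 fold change was 2.47 ± 0.64 (SE), from 10.9 ± 7.36 to 60.3 ± 22.1 normalized counts (SD, n = 2). These are small counts: control 2L held 5 reads (exact Poisson 95% interval 1.62 to 11.7) and STZ 2L 72 (56.3 to 90.7). Without control 2L the log2 fold change was 1.79, and without control 4R 3.15. Without STZ 4R it stood at 2.85 (limma, adjusted p = 0.0126, from a control pair that hardly weighed on its spread). Of the surface epithelium markers, 25 of 28 had both STZ libraries above both controls, as these 2 annexins had, where 14.3% of all tested genes did. Between the controls, 2L minus 4R was a median of 0.58 log2 units in those markers, 0.62 in Anxa8 and -1.35 in Anxa9. Members and lists were chosen with results of these data known, so the shared order is a description only.

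**Figure D2:**
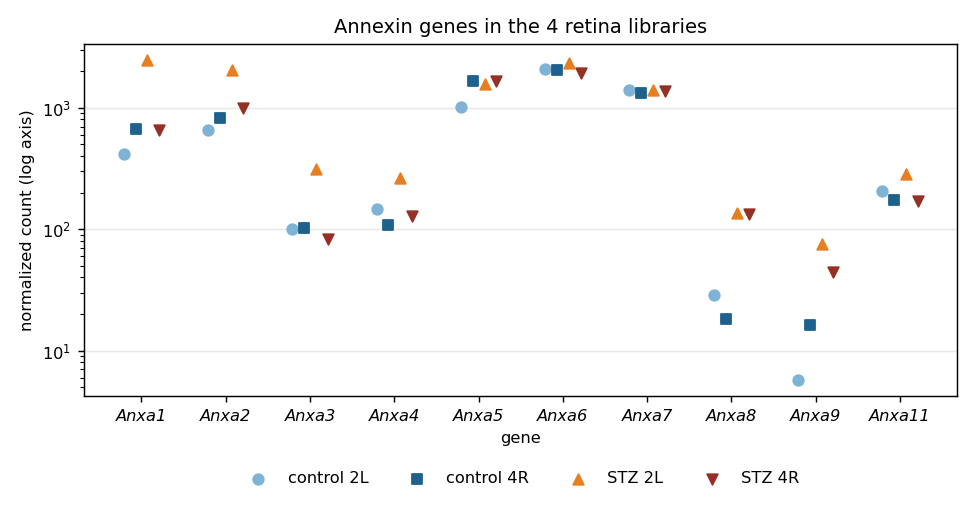
Normalized counts (log axis) of the 10 annexins in the 2 control and 2 STZ libraries, 1 point each. Anxa8 and Anxa9 are higher in both STZ libraries, Anxa1 and Anxa3 in STZ 2L alone, and Anxa6 and Anxa7 lie close together.

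Anxa1 and Anxa2, the abundant members with roles at the cell surface, were highest in STZ 2L. Anxa1 read 415 (2L) and 667 (4R) normalized counts in the controls, and 2471 (2L) and 657 (4R) after STZ. STZ 4R fell between the controls, so the groups overlapped. The log2 fold change was 1.27 ± 0.53 (SE), from 541 ± 178 to 1564 ± 1283 normalized counts (SD, n = 2), and STZ 2L was 3.76-fold above STZ 4R. The value was 0.32 when STZ 2L was left out and 2.23 when STZ 4R was. The limma adjusted p of the latter, 6.1e-17, rests on the pooled spread described for Anxa8, although the controls of Anxa1 differed by 0.68 log2 units and its STZ libraries by 1.91.

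Anxa2, which anchors plasminogen and its activator at cell surfaces, read 657 (2L) and 816 (4R) normalized counts in the controls, and 2046 (2L) and 989 (4R) after STZ. Both STZ libraries lay above both controls, STZ 4R by a small margin. The log2 fold change was 0.96 ± 0.32 (SE), from 737 ± 112 to 1518 ± 747 normalized counts (SD, n = 2). It was 0.43 when STZ 2L was left out and 1.48 when STZ 4R was (limma, adjusted p = 6.6e-08, with the same limit). In the authors' deposited table its value was 1.04 on the log2 scale (adjusted p = 0.15).

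Anxa3, Anxa4 and Anxa11 were higher in STZ 2L and not in STZ 4R. Anxa3, known from neutrophils, read 100.1 (2L) and 102 (4R) normalized counts in the controls, and 310 (2L) and 83.5 (4R) after STZ. STZ 4R was the lowest of the 4 libraries. The log2 fold change was 0.67 ± 0.55 (SE), but -0.27 when STZ 2L was left out and 1.61 when STZ 4R was (limma, adjusted p = 0.00205, with the same limit). Anxa4, an annexin of secretory epithelia, read 147, 108, 266 and 127 normalized counts in the same order, with a log2 fold change of 0.55 ± 0.40 (SE) that was 0.019 without STZ 2L. Anxa11, which links RNA granules to lysosomes in neurons, read 206, 174, 283 and 171, at 0.22 ± 0.31 (SE) and -0.14 without STZ 2L. In all 3 genes the STZ 4R value lay below the higher control.

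Of the abundant annexins Anxa5, Anxa6 and Anxa7, the last 2 differed little between the groups, and the value of Anxa5 depended on the control library kept. Anxa5 read 1009 (2L) and 1651 (4R) normalized counts in the controls, and 1572 (2L) and 1668 (4R) after STZ. Control 2L alone was low, with control 2L minus 4R at -0.71 log2 units. The log2 fold change of 0.33 ± 0.24 (SE) went to -0.028 without control 2L and to 0.68 without control 4R. In the same order Anxa6 read 2088, 2050, 2317 and 1943 normalized counts, a log2 fold change of 0.036 ± 0.16 (SE). Anxa7, known for granule fusion, read 1394, 1312, 1409 and 1379, at 0.043 ± 0.16 (SE). The libraries of Anxa7 spanned 0.10 log2 units in all and those of Anxa6 0.25, the narrowest spans of the family.

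All 10 members had a log2 fold change above 0, where 48.9% of all tested genes did, and their median was 0.61 against -0.01 over all tested genes. The median was 0.17, with 7 of 10 above 0, when STZ 2L was left out and 1.28 when STZ 4R was. Both STZ libraries lay above both controls in 3 of 10, Anxa2, Anxa8 and Anxa9, where 14.3% of all tested genes did so. At an unadjusted p of 0.05 limma gave 4 of 10 members, Anxa1 and those 3, all higher. Of all tested genes 2.31% were higher and 0.447% lower at that threshold. When adjusted over all genes, 0 members passed. The members were chosen with these values known, so nothing is read from these counts.

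The STZ libraries differed from each other more than the controls did for several members. On the log2 scale STZ 2L lay above STZ 4R by 1.91 in Anxa1, 1.88 in Anxa3, 1.06 in Anxa4 and 1.05 in Anxa2. These are the 4 of 10 members more than 1 log2 unit higher in STZ 2L, a mark that 6.59% of all tested genes reached. Anxa9 followed at 0.75, Anxa11 at 0.72, Anxa6 at 0.25, Anxa7 at 0.031 and Anxa8 at 0.020, and Anxa5 was lower in STZ 2L, at -0.085. Between the controls, 2L minus 4R ran from -1.35 in Anxa9 to 0.62 in Anxa8. With 1 library on each side these differences have no test.

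**Figure D3:**
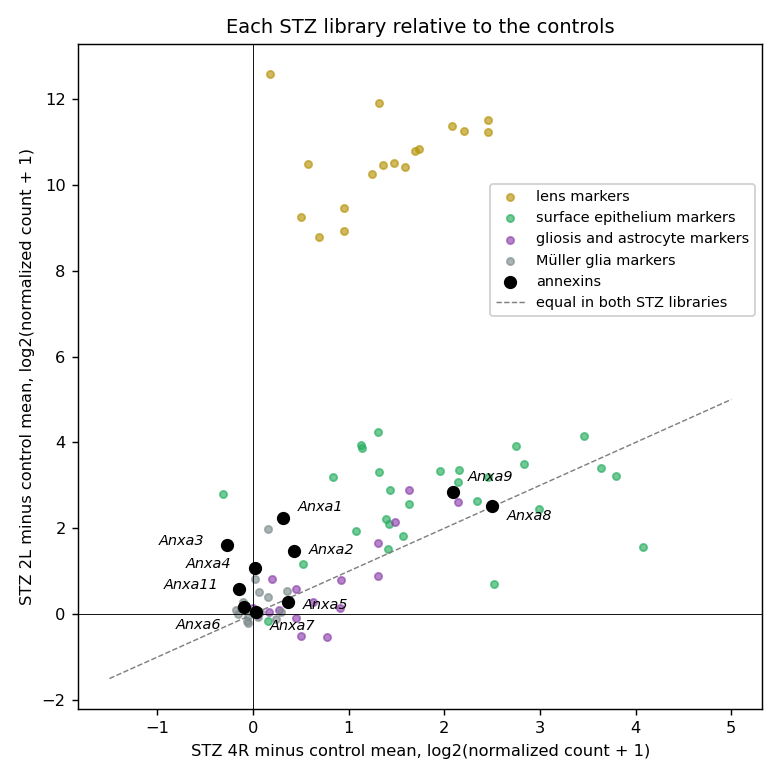
Difference of each STZ library from the control mean on the log2(normalized count + 1) scale, STZ 4R on the horizontal axis and STZ 2L on the vertical, for the annexins (black) and the tested markers of lens, surface epithelium, gliosis and Müller glia. Anxa8 and Anxa9 lie among the epithelial markers near the line of equal difference, Anxa1, Anxa2, Anxa3 and Anxa4 lie above it, and lens markers lie far above.

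The marker lists showed how nearby tissues varied in the same libraries. The 17 tested lens markers had a median difference between STZ 2L and STZ 4R of 9.05 log2 units, and in 17 of 17 it exceeded 1. Cryaa, the lens alpha crystallin, read 1018000 (2L) and 1945 (4R) normalized counts in the STZ libraries, against 2058 (2L) and 236 (4R) in the controls. The 28 surface epithelium markers had a median difference of 0.78, with 10 above 1, and medians of 2.98 (2L) and 1.60 (4R) in the STZ libraries relative to control. Among them Krt5, a keratin of basal epithelial cells, read 457 and 87.5 normalized counts in controls 2L and 4R, against 2136 (2L) and 2503 (4R) after STZ. Krt12, the cornea keratin, read 338, 143, 652 and 3715, and was highest in STZ 4R. The 9 tested markers of fibroblasts and stroma had a median difference between STZ 2L and STZ 4R of 0.88. They were split, with 6 of 9 higher in STZ 2L and 3 above 1. The whole list of 10 took similar shares of reads in the STZ libraries, 0.00891% (2L) and 0.00841% (4R). Pigment epithelium, which adjoins the retina, was low in control 2L: its 14 markers, with those of melanocytes, took 0.00756% of reads in control 2L and 0.0323% in control 4R, a median difference of -2.65 log2 units. They took 0.0322% (2L) and 0.0217% (4R) in the STZ libraries, and their median log2 fold change was 0.76, with 13 of 14 above 0 but 1 of 14 with both STZ libraries above both controls. Control 2L was also the lowest library for Anxa1, Anxa2, Anxa5 and Anxa9, and the part of pigment epithelium in those values was not tested.

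The 15 Müller glia markers stood at a median log2 fold change of 0.065, and their STZ libraries differed by a median of 0.15. The 18 gliosis and astrocyte markers stood at a median log2 fold change of 0.48, 10 of them with STZ above control in every library (14.3% of all tested genes), and at a median of -0.083 between STZ 2L and STZ 4R. The 18 microglia and macrophage markers had a median log2 fold change of 0.11. Neutrophils are rich in Anxa1 and Anxa3, and 1 of their 11 markers, Ltf, was tested. The list held 8 (2L) and 21 (4R) reads in the controls, and 92 (2L) and 59 (4R) after STZ, with Ngp, Camp, Retnlg and Ly6g at 0 in all 4. Most of the reads after STZ were from Ltf, the lactoferrin gene, which glandular epithelia also express, with 4 (2L) and 10 (4R) reads in the controls and 76 (2L) and 41 (4R) after STZ. The count is therefore largely that of a single gene.

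Each member's centred profile over the 4 libraries was set beside the median profile of 11 marker lists by Euclidean distance in log2 units, as a description. Anxa8 lay nearest to surface epithelium, at 0.79, with the next list, gliosis and astrocytes, at 2.12. Anxa9 also lay nearest to surface epithelium, at 1.35, ahead of pigment epithelium and melanocytes at 1.69. Anxa1, Anxa2, Anxa3, Anxa4 and Anxa11 lay nearest to fibroblasts and stroma, at 1.14, 0.53, 0.77, 0.52 and 0.46. For Anxa1 surface epithelium came next, at 1.42. Anxa6 and Anxa7, with little spread, lay nearest to Müller glia, whose median was also flat, at 0.15 and 0.046, and Anxa5 to gliosis and astrocytes, at 0.38. The lens list was the farthest for each member, at 7.40 to 9.02, since its difference between libraries was far larger than that of any annexin. The stroma and lens medians were both highest in STZ 2L, at 0.75 and 7.67 in centred log2 units. The distance weighs size as well as pattern, so it cannot tell which of these lists a member resembles in pattern.

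**Figure D4:**
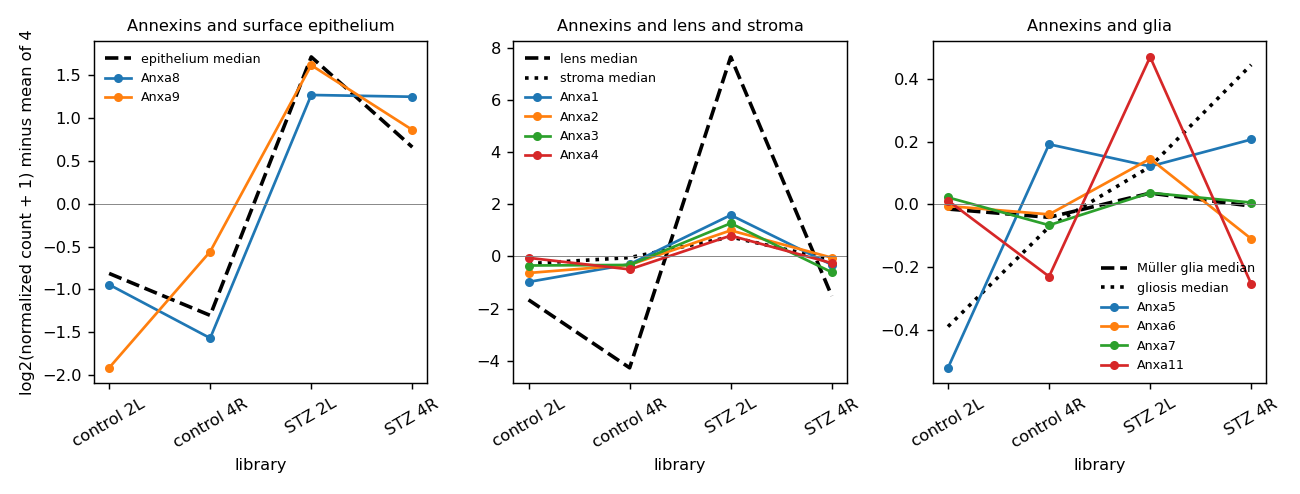
Centred log2(normalized count + 1) values of the annexins (coloured) and medians of marker lists (black) in the 4 libraries, in 3 panels with different vertical scales, where the lines join libraries only to guide the eye. Anxa8 and Anxa9 have both STZ libraries above their mean, as does the epithelium median, and Anxa1, Anxa2, Anxa3 and Anxa4 peak in STZ 2L with a far smaller range than the lens median.

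Genes with the profile closest to a member were sought among 14498 tested genes for the 6 members that spanned over 1 log2 unit. Anxa8 was closest to the keratin gene Krt6b (distance 0.25), then Upk3bl (0.58) and Calml3 (0.66). Krt6b read 161 and 122 normalized counts in controls 2L and 4R, against 879 (2L) and 715 (4R) after STZ. Anxa9 was closest to the desmosomal cadherin Dsg2 (0.32), then Ces1d (0.49) and Ltf (0.51). Anxa1 was closest to Cldn10 (0.19), Tlcd2 (0.24) and Tmc6 (0.27). Anxa2 was closest to the retinaldehyde dehydrogenase gene Aldh1a1 (0.082), which read 1022, 1296, 3307 and 1662 normalized counts, then Tmprss4 and Kctd12 (0.10 each). Anxa3 was closest to Hsf4, a transcription factor of lens development (0.094), which read 329, 335, 1096 and 289, then Mypn and Smad6 (0.14 each). Anxa4 was closest to Shc1 (0.089), Neat1 (0.092) and S1pr3 (0.10). With 4 libraries many genes can share a profile.

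S100 proteins are small calcium-binding partners of annexins, and 11 of 16 S100 genes were tested. Of these, 8 had a log2 fold change above 0, with a median of 0.51, and 0 passed in limma. S100a10, the partner of Anxa2, read 483 (2L) and 748 (4R) normalized counts in the controls, and 1087 (2L) and 680 (4R) after STZ, so the groups overlapped, at 0.51 ± 0.29 (SE). S100a11, the partner of Anxa1, read 115, 90.5, 529 and 140, at 1.41 ± 0.55 (SE). Its STZ 2L value exceeded its STZ 4R value by 1.91 log2 units, as in Anxa1. Between the controls they went opposite ways, with 2L minus 4R at 0.34 in S100a11 and -0.68 in Anxa1. S100a6, which binds Anxa2 and Anxa11, read 192, 183, 1744 and 331, at 2.01 ± 0.63 (SE). Both STZ libraries lay above both controls for S100a11 and S100a6.

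S100a4, another binding partner of Anxa2, differed by 4.56 log2 units between the STZ libraries, at 1508 (2L) and 62.9 (4R) normalized counts in the STZ libraries. The controls read 71.6 and 85.5. S100a14, known from epithelia, read 53.5 and 22.1 in controls 2L and 4R, 128 (2L) and 89.3 (4R) in the STZ libraries, at 1.60 ± 0.50 (SE). The median of the list was 0.12 when STZ 2L was left out and 1.28 when STZ 4R was. Per kilobase of transcript, S100a10 averaged 1094 normalized counts over the 4 libraries beside 779 for Anxa2, and S100a11 427 beside 629 for Anxa1.

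**Figure D5:**
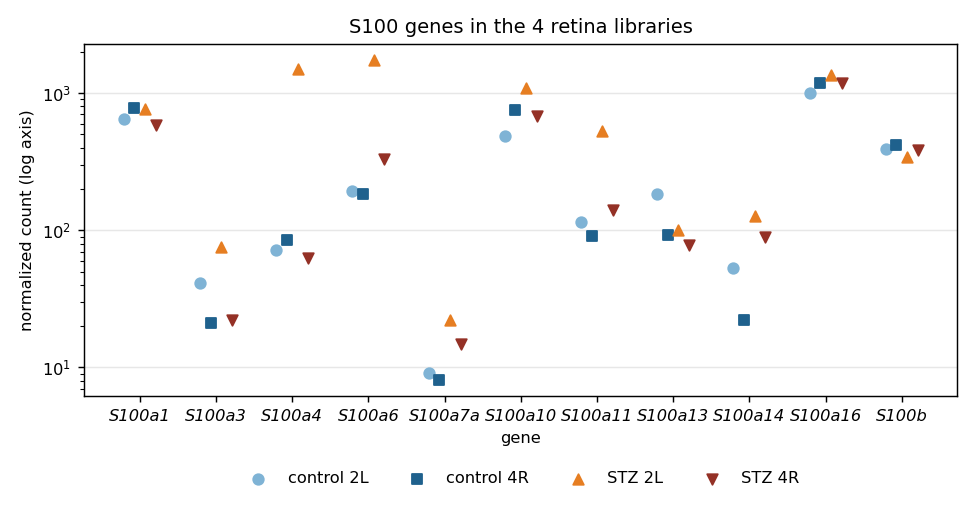
Normalized counts (log axis) of the 11 tested S100 genes in the 4 libraries, 1 point per library. S100a4, S100a6 and S100a11 are highest in STZ 2L, at 1508, 1744 and 529.

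Other genes of annexin biology were read from 6 further lists, in which 0 genes passed in limma in either direction. The formyl peptide receptors, through which Anxa1 acts on leukocytes, held 2 (2L) and 0 (4R) reads in the controls, and 0 (2L) and 2 (4R) after STZ over 7 genes, and 0 of them was tested. A count of 0 there allows a share of up to 1.15e-05% of reads in control 4R and 1.11e-05% in STZ 2L (95% Clopper-Pearson upper bound). Plasminogen activation genes, the pathway that Anxa2 serves, had a median log2 fold change of -0.11, with 2 of 5 tested genes higher. Plat, the tissue plasminogen activator, stood at 0.095 ± 0.26 (SE), the receptor gene Plgrkt at -0.26 ± 0.25 and Serpine2, an inhibitor, at -0.11 ± 0.24. Plau, the urokinase gene, stood at -0.99 ± 0.90, with 3.17 normalized counts in STZ 2L and 13.6 to 24.1 in the other libraries.

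Membrane repair genes, among which annexins act as wound patches, had a median log2 fold change of 0.099, with 15 of 19 tested genes higher. Ahnak, a large scaffold protein that binds Anxa2 with S100a10, read 571 and 591 normalized counts in controls 2L and 4R, against 2093 (2L) and 857 (4R) after STZ, at 1.20 ± 0.36 (SE). Dysf, the repair protein dysferlin, stood at 0.43 ± 0.32, its relative Myof at 0.36 ± 0.21 and Trim72 at 0.60 ± 0.78 (SE). Phospholipase A2 genes, whose enzymes annexins were first described as inhibiting, had a median of -0.087, with 3 of 9 higher. Pla2g4b stood at -0.96 ± 0.61, Pla2g3 at -0.55 ± 0.38, Pla2g6 at -0.26 ± 0.17 and Pla2g4a at 0.48 ± 0.40 (SE).

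Genes of phosphatidylserine recognition and exposure, the signal that Anxa5 binds, had a median log2 fold change of 0.023, with 8 of 15 tested genes higher. Stab1, a scavenger receptor, stood at 0.79 ± 0.35, the bridging protein Pros1 at 0.57 ± 0.24 and Stab2 at -0.55 ± 0.33 (SE). Glucocorticoid response genes, of which Anxa1 is a classic member, had a median of 0.082, with 8 of 12 higher. Zbtb16 stood at 0.85 ± 0.37, Cdkn1a at 0.65 ± 0.31, the metallothionein Mt2 at 0.58 ± 0.23 and the kinase Sgk1 at -0.20 ± 0.17 (SE). These medians lay between -0.11 and 0.10, beside 0.61 for the annexins and 0.51 for the S100 genes. That contrast depended on STZ 2L. When it was left out, the medians were 0.17 for the annexins and 0.12 for the S100 genes. Those of the other lists then ran from -0.14 (phospholipase A2) to 0.18 (glucocorticoid response).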

How the data were processed

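Polyadenylated RNA of dissected retina was sequenced on Ion Torrent instruments and analysed in Torrent Suite 5.4.0, with STAR and then Bowtie2 on mm10 and counting by HTSeq and Picard, per the labels' protocols. The authors deposited 1 table: a normalized signal (reads per gene over a size factor of the library), its mean, and for their comparison a log2 fold change, a score (the standard error and the statistic), and p-values before and after adjustment. Not given in the sources used here: annotation, strand setting, comparison tool. Columns tagged 4R name a group but match no tag in the labels, and served as further libraries of that group.

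Values were whole multiples of 1 step per library for 100% of genes, to within 0.01 reads, which gave reads per library of 29352330 and 31973786 (controls, 2L and 4R) and 33166680 and 39299653 (STZ, 2L and 4R). Tests on these recovered reads are alternatives: edgeR 4.0.16 called 0 genes and DESeq2 1.42.0 called 52. Chi-square per degree of freedom between recovered reads was 29.4 for the controls and 255 for STZ, far above sampling noise in each pair. Because the unit was not raw counts, limma 3.58.1 (R 4.3.3) was fitted to log2(value + 1) with a mean-dependent prior over 18127 genes with at least 10 in at least 2 libraries, two-sided, with Benjamini-Hochberg adjustment at 0.05. Alternatives were other scalings, filters, pseudocounts and tests, a replicate block and each library left out. Transcript lengths and overlaps came from GENCODE M21. Protein sequences were not used here. The text names all members, the 4 tested genes of each partner list with the largest change, S100a10, S100a11 and S100a6, up to 3 abundant markers of a list, and the 3 nearest profiles, except 1 gene that is not reported here. Overlapping genes and neutrophil markers at 0 were named after their values were seen. Members and lists were chosen with earlier results of these data known.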

Additional observations from a re-analysis of the deposited data

How the results depend on the processing

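Over all genes, limma called 0 genes higher and 0 lower under TMM and quantile scaling, a filter at 50, pseudocounts of 0.5 and 5 and the replicate block, as did edgeR; it called 13 higher with no filter, and DESeq2 52. Leaving out 1 library gave 11 to 572 genes higher and 0 to 39 lower, in fits that assume the lone library varies like the other group. The highest counts, 63 when STZ 2L was left out and 572 when STZ 4R was, came from fits whose prior degrees of freedom were infinite and 1793, against 6.17 in the whole fit, and are not evidence of more differing genes. Same-tagged libraries deviated together only weakly (r = 0.099 over genes, 2 pairs). With 2 libraries per group the deviations within a group mirror each other, so this value cannot show whether same-tagged libraries share a batch or other handling. With the replicate block the annexin median was 0.61 and the genes at an unadjusted p of 0.05 went from 419 higher and 81 lower to 476 and 155.

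The 8 settings that kept all libraries and all members kept every member's direction. Anxa8 ran from 2.32 (pseudocount 5) to 2.54 and passed in DESeq2 alone (adjusted p = 0.000443). Anxa9 was not tested with the filter at 50. With 1 library left out, log2 fold changes ran from 0.32 to 2.23 (Anxa1), 0.43 to 1.48 (Anxa2), -0.27 to 1.61 (Anxa3), 0.019 to 1.08 (Anxa4), -0.028 to 0.68 (Anxa5), -0.091 to 0.16 (Anxa6), -0.00074 to 0.087 (Anxa7), 2.20 to 2.82 (Anxa8), 1.79 to 3.15 (Anxa9) and -0.14 to 0.58 (Anxa11). The sign turned for Anxa3, Anxa6 and Anxa11 without STZ 2L, for Anxa5 without control 2L and for Anxa7 without control 4R. The plasminogen count of 2 higher was 1 under quantile scaling and 1 to 2 with a library left out, with medians of -0.31 to -0.055. Medians ran over the omissions from 0.063 to 0.21 (membrane repair), -0.18 to -0.031 (phospholipase A2), -0.0051 to 0.12 (phosphatidylserine, lowest without STZ 2L) and for glucocorticoid response from -0.022 (without STZ 4R) to 0.18, with 5 to 10 genes higher. Depth limits Anxa9, with 5 reads in control 2L, and the formyl peptide receptors.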
